A study of Mus musculus with 6 samples.

Results

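Notch receptors and the genes that act with and below them were followed in lineage-negative (Lin-) cells of mouse blast crisis chronic myeloid leukemia (bcCML). The genes were taken by name. They are the 4 receptors Notch1 to Notch4, the nuclear cofactors Rbpj and Maml1, and the target genes Hes1, Hes6, Nrarp and Dtx4. All 10 were found, each as 1 of the 36083 genes in the deposited table. The RNA came from 2 groups with 3 libraries each, WT and Sdc1-/-, and the study's question was how the leukemia differs when Sdc1, which encodes the cell surface proteoglycan syndecan-1, is disrupted in the donor. In both groups the donors were B6 mice whose KLS cells, which hold stem and progenitor cells, received the oncogenes BCR-ABL and NUP98-HOXA9. By the labels, double-positive cells went into NSG recipients, and Lin- cells were sorted from the spleens when both cohorts were killed together. The study's general methods instead name irradiated B6.SJL mice as recipients of primary bcCML transplants, and this difference was not resolved. The Sdc1-/- donors carry an allele whose signal peptide sequence is disrupted, and the labels give no ages. NSG hosts lack their own T, B and NK cells but keep myeloid and stromal cells. The labels do not say whether the libraries of a group came from separate mice, and a legend of the study calls the WT libraries technical replicates, so the p-values measure the spread between these libraries, which may be technical. In bulk RNA, fewer cells of a type and less RNA per cell cannot be told apart.

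Notch receptors are single-pass membrane proteins that are cut after they bind a Delta or Jagged ligand on a neighbouring cell. The last cut, by gamma-secretase, frees the intracellular domain, which enters the nucleus, joins the DNA-binding protein RBPJ and recruits a Mastermind coactivator encoded by the Maml genes. HES genes, Nrarp and Deltex genes are among the known targets, and several of their products feed back on the pathway. In blood, Notch1 is best known for committing progenitors to the T lineage, and Notch signals have been studied both as drivers of lymphoid leukemia and as brakes on myeloid leukemia.

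Values are TPM, which are corrected for transcript length and therefore allow genes to be compared, but they had been rescaled between libraries, with sums from 944973 to 1058263. Read depth is unknown, so counting error could not be estimated. Sdc1 itself, at 1.75, 1.21 and 1.51 in the libraries labelled WT, read 3.85, 3.80 and 4.12 in those labelled Sdc1-/-, which is higher where the gene is disrupted. The groups are therefore named by their labels in what follows, and every direction below rests on those labels. The groups also differed in 4 Y-linked genes, summed at 0.276 to 0.308 in the libraries labelled WT and 68.1 to 78.4 in those labelled Sdc1-/-, so that genotype and the sex of the cells cannot be told apart. The labelled cell type was checked on Kit, at 12.8 ± 0.80 and 14.7 ± 0.26, and Hoxa9, at 84.8 ± 4.10 and 96.5 ± 4.87 (SD, n = 3 libraries per group). Because the cells received NUP98-HOXA9, Hoxa9 by itself cannot check the cell type. Whether the introduced oncogene added to its values was not tested. All 8 progenitor markers were above 1. Of these, 5 rose and 3 fell in the libraries labelled Sdc1-/-, from Meis1, at 13.1 ± 0.35 and 28.6 ± 1.08, to Cd47, at 442 ± 11.8 and 298 ± 8.88 (SD, n = 3 each). Of the neutrophil markers, 7 of 7 fell in the libraries labelled Sdc1-/-, their summed level going from 12543 to 13491 in WT to 4557 to 4696. Of 7 monocyte and macrophage markers 6 were tested and all 6 fell, from summed levels of 511 to 534 to levels of 225 to 233. Csf1r, Cd14 and C1qb averaged 1 or more, the limit for testing, only through WT, with Sdc1-/- means of 0.512, 0.870 and 0.994. Most of the sum was Ly6c2, at 490 ± 12.5 and 217 ± 5.74 (SD, n = 3 each). By the same test, described below, 29.3% of all tested genes rose and 31.3% fell. Of 9 T cell markers 7 stayed under 1 in every library, Cd3e not exceeding 0.038, while Lck rose from 6.89 ± 1.061 to 14.1 ± 0.74, and the sum went from 7.96 to 10.02 in WT to 16.1 to 17.1. Of 8 endothelial markers 5 stayed under 1, with Cdh5, Kdr and Robo4 not exceeding 0.045, while Vwf rose from 4.14 ± 0.66 to 14.8 ± 0.66 and Egfl7 fell from 130 ± 11.3 to 92.0 ± 5.23 (SD, n = 3 each), as did Pecam1. Of 7 stromal and mural markers 4 stayed under 1, while Col1a2 rose from 18.8 ± 0.36 to 23.2 ± 0.047. Pdgfrb fell from 7.31 ± 0.32 to 4.18 ± 0.15 and Acta2 from 1.45 ± 0.20 to 0.577 ± 0.032 (SD, n = 3 each), Acta2 reaching the limit only through WT. None of these markers is at 0 throughout, and their part in the Notch results was not tested.

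Positions are those of GENCODE M21 on GRCm38, which the submitters' processing notes call mm10, and the receptors lie on 3 chromosomes. Notch1 (ENSMUSG00000026923) is on the minus strand at chr2:26457903-26516663. Notch2 (ENSMUSG00000027878) is on the plus strand at chr3:98013527-98150361. Notch3 (ENSMUSG00000038146) is on the minus strand at chr17:32120820-32166852 and Notch4 (ENSMUSG00000015468) on the plus strand at chr17:34564268-34588503. Of the cofactors, Rbpj (ENSMUSG00000039191) is at chr5:53466152-53657362 and Maml1 (ENSMUSG00000050567) at chr11:50255634-50292311. The targets are Hes1 (ENSMUSG00000022528, chr16:30064384-30067796), Hes6 (ENSMUSG00000067071, chr1:91411483-91414038), Nrarp (ENSMUSG00000078202, chr2:25180758-25183339) and Dtx4 (ENSMUSG00000039982, chr19:12466338-12501454).

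Promoter sequence from RefSeq (GRCm38.p6) was matched for 8 of the 10 genes. None was matched for Hes1 or Dtx4, so their promoters were not searched. Shown are 250 bases up to the start site, 5′ to 3′ on the strand of the gene, for Nrarp, Notch3 and Rbpj (the first of its 2 promoters). Nrarp is a target that rose, and Notch3 a receptor that was lower with little spread between libraries. Rbpj was the only member, among the 8 searched, whose window held the RBPJ core. In the first, capitals mark the N-box and E-box letters. In the second they mark N-boxes, and in the third the RBPJ core.
Nrarp (chr2:25180508-25180757, plus strand): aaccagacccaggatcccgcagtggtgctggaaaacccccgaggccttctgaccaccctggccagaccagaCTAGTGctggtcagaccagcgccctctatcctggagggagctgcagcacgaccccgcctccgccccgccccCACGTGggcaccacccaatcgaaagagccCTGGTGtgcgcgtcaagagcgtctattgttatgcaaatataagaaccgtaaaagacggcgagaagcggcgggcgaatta
Notch3 (chr17:32166891-32167140, minus strand): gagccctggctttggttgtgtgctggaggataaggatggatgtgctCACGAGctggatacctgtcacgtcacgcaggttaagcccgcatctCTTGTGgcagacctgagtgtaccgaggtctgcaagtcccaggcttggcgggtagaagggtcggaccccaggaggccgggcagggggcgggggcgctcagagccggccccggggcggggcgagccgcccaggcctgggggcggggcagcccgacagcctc
Rbpj (chr5:53590096-53590345, plus strand): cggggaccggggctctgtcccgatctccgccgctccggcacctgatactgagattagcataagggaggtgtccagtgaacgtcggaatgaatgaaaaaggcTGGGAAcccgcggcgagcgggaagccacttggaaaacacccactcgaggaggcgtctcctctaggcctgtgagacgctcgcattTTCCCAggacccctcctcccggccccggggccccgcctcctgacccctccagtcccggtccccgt
Windows from 250 before to 50 after the start site, were searched on both strands for the RBPJ core TGGGAA, the HES-bound N-box CACNAG and the E-box CACGTG. The core was in 1 of 8 members (Rbpj) and in 25.6% of all 32851 promoters, the N-box in 5 of 8 members and 42.5% of all promoters, and the E-box in 1 of 8 members (Nrarp) and 7.15% of all. In the Rbpj promoter the core stood at position -149 on the strand of the gene and at -65 on the other strand, counted to the first base from the start site. The Nrarp window had an E-box at -108 and N-boxes at -179 and -79 on the other strand. These matches describe the letters of the window only.

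The 10 genes moved in different directions between the groups. Of the 8 whose values averaged 1 or more across libraries, the limit for testing, 3 rose in the libraries labelled Sdc1-/- (Hes1, Nrarp and Notch2), 3 fell (Notch1, Rbpj and Dtx4) and 2 were not called (Maml1 and Hes6) at an adjusted p under 0.05 from limma with Benjamini-Hochberg adjustment over 12155 genes. Over all tested genes 60.7% were called, 29.3% higher and 31.3% lower, so a share of 6 in 8 lies near a background in which most genes differed. Their log2 fold changes had a median of -0.090, against -0.0097 for all tested genes. The changes ran from -0.49 to 0.72, on the scale of log2(value + 1), where low genes show less than their full change. The 6 calls kept their direction and stayed past the threshold in each other setting that could be fitted for them. The groups did not overlap in 7 of the 8 tested genes, and in 66.7% of all tested genes. Over the 10 genes they did not overlap in 8, against 43.7% of the 24714 genes with any value above 0. Of those 24714 genes 12155 averaged 1 or more, as did 8 of the 10, so the 2 sets are not alike in level.

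**Figure D1:**
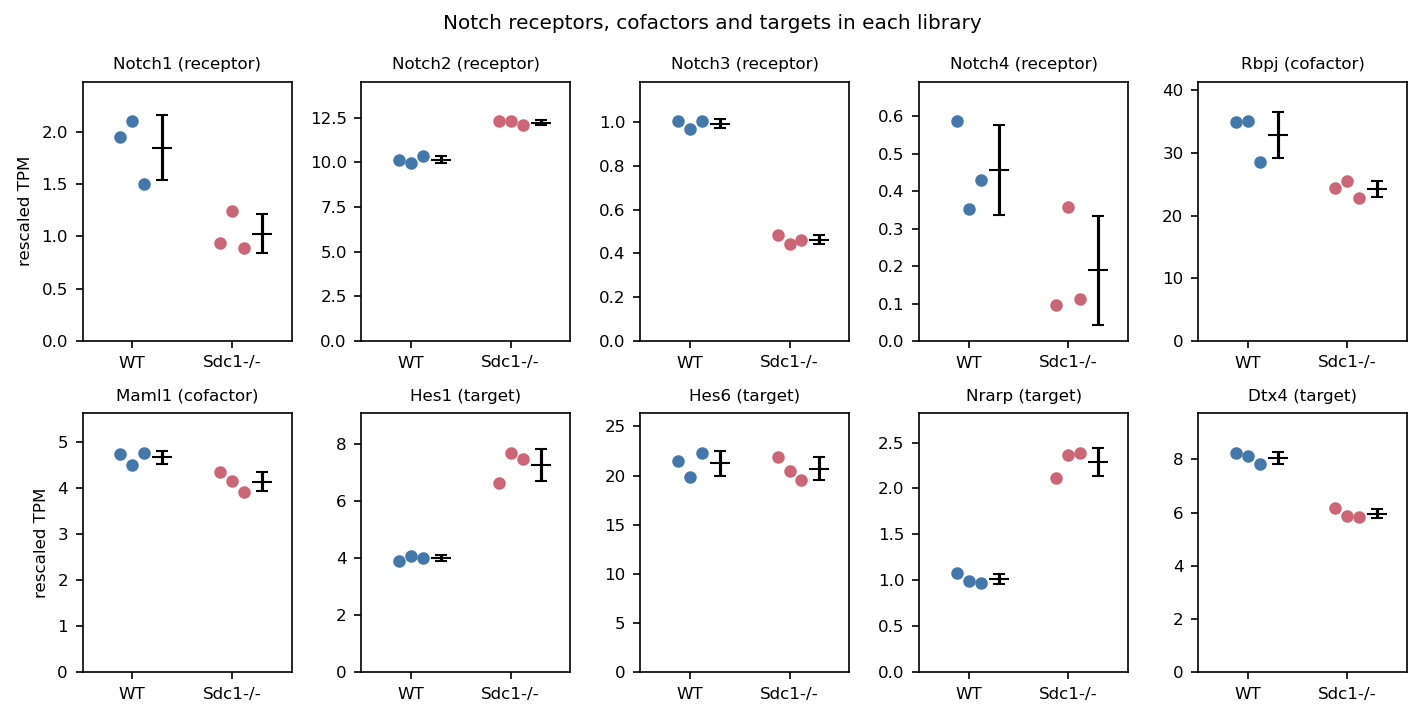
Rescaled TPM (vertical axes, from 0) of the 10 genes in the 3 WT and 3 Sdc1-/- libraries, 1 point per library, with the group mean and SD as a bar beside the points. Notch1, Notch3, Rbpj and Dtx4 lie lower and Notch2, Hes1 and Nrarp higher in every library labelled Sdc1-/- than in every library labelled WT, Maml1 is slightly lower without overlap, and Hes6 and Notch4 overlap between the groups.

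Notch2 held most of the receptor mRNA in both groups, and the other receptors lay well below it. Notch2 read 10.1, 9.95 and 10.3 in the WT libraries and 12.3, 12.3 and 12.1 in the Sdc1-/- libraries, so that the lowest Sdc1-/- library stood above the highest WT library. Its log2 fold change was 0.25 (standard error 0.039, 95% interval 0.15 to 0.34, adjusted p = 0.0014 from limma), a rise of 20.5% on the linear scale. After scaling each library to a total of 1000000, the log2 fold change of Notch2 was 0.38, in a setting that moved the median of all genes from -0.0097 to 0.12.

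Notch1 moved the other way. It read 1.95, 2.10 and 1.50 in the WT libraries and 0.941, 1.24 and 0.894 in the Sdc1-/- libraries. Every Sdc1-/- library lay below every WT library, with WT replicate 3 and Sdc1-/- replicate 2 the closest pair. The log2 fold change of Notch1 was -0.49 (standard error 0.11, 95% interval -0.76 to -0.22, adjusted p = 0.0078 from limma), and the mean fell by 44.6%. A pseudocount of 0.1 in place of 1 gave a log2 fold change of -0.79. The Notch1 transcripts hold 14189 words of 31 bases, and 9.4% of these also occur in other genes, chiefly 0610009E02Rik and Gm13568, which overlap Notch1 on the opposite strand.

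Notch3, a receptor best known from vascular smooth muscle and developing T cells, was close to 1 TPM in WT and below it in Sdc1-/- libraries. It read 1.00, 0.968 and 1.00 in the WT libraries and 0.485, 0.441 and 0.462 in the Sdc1-/- libraries, with SDs of 0.021 and 0.022 (n = 3 each). The groups were clearly apart and the libraries within each were close together, but the mean of 0.727 was below the limit for testing. In the fit with no minimum mean, the log2 fold change of Notch3 was -0.45 (standard error 0.038, 95% interval -0.54 to -0.35, adjusted p = 6.1e-04 from limma), where 32.5% of 24714 genes were called and 16.6% were lower. The mean of Notch3 fell by 53.3% on the linear scale, and with a pseudocount of 0.1 in the same fit its log2 fold change was -0.96.

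Notch4, known chiefly from endothelium, was the lowest of the 4. It read 0.588, 0.352 and 0.430 in the WT libraries and 0.0954, 0.357 and 0.113 in the Sdc1-/- libraries. Replicate 2 of the Sdc1-/- libraries lay above replicate 2 of WT, so the groups overlapped. With no minimum mean, the log2 fold change of Notch4 was -0.30 (standard error 0.10, 95% interval -0.56 to -0.036, adjusted p = 0.087 from limma), not past the threshold. Without that Sdc1-/- replicate 2, an alternative chosen after seeing the data, it was -0.40 with an adjusted p of 0.029 from limma, so the call turned on 1 library, and over its alternatives the adjusted p ran from 0.029 to 0.23.

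Because these changes ran against each other, the summed level of the 4 receptors overlapped between the groups while its make-up differed. The sum was 13.7, 13.4 and 13.3 TPM in the WT libraries and 13.8, 14.3 and 13.5 TPM in the Sdc1-/- libraries (two-sided p = 0.2 from an exact permutation test). Notch2 made up 74.1%, 74.4% and 77.9% of that sum in WT and 89.0%, 85.8% and 89.1% in Sdc1-/- libraries. The share of Notch1 was 13.8% ± 2.26 in WT and 7.36% ± 1.13 in Sdc1-/- libraries, and that of Notch3 7.38% ± 0.163 and 3.33% ± 0.229 (SD, n = 3 each). Per library, the ratio of Notch2 to Notch1 was 5.19, 4.73 and 6.90 in WT against 13.1, 9.92 and 13.5 in Sdc1-/- libraries. Shares and ratios within a library do not depend on how libraries were scaled against each other. For each receptor's share and for this ratio the groups did not overlap, with a two-sided exact permutation p of 0.1, which is as low as 3 libraries against 3 can go. The share of Notch4 came close, with 2.63% as its lowest WT value and 2.49% as its highest Sdc1-/- value.

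**Figure D2:**
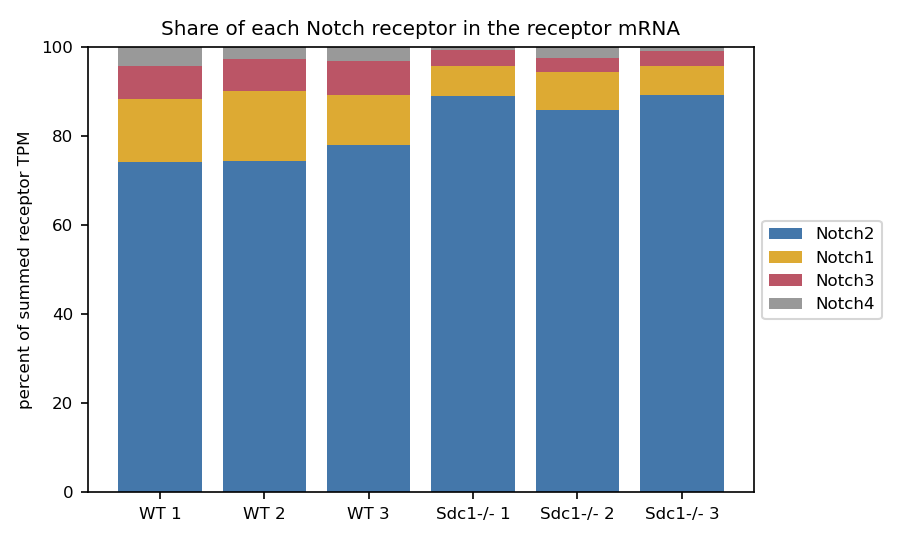
Share of each receptor in the summed TPM of Notch1 to Notch4 (vertical axis, percent), 1 stacked bar per library. Notch2 takes 74.1% to 77.9% in the WT bars and 85.8% to 89.1% in the Sdc1-/- bars, and the Notch1 and Notch3 parts are smaller in each Sdc1-/- bar.

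Of the nuclear cofactors, Rbpj, the DNA-binding protein on which all 4 receptors converge, was the most abundant of the 10 genes. It read 35.0, 35.1 and 28.6 in the WT libraries and 24.5, 25.5 and 22.8 in the Sdc1-/- libraries. WT replicate 3 was lower than the other two but remained above all Sdc1-/- libraries. The log2 fold change of Rbpj was -0.42 (standard error 0.086, 95% interval -0.62 to -0.22, adjusted p = 0.0046 from limma), and the mean fell by 26.2%. It was -0.28 with equal library totals. Rbpj shares 11.8% of its 12755 words of 31 bases with other transcripts, chiefly the pseudogene Rbpj-ps3, whose mean was 0.105 in WT and 0.313 in Sdc1-/- libraries.

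Maml1, a Mastermind coactivator of the RBPJ complex, read 4.72, 4.50 and 4.76 in the WT libraries and 4.33, 4.14 and 3.92 in the Sdc1-/- libraries. The groups did not overlap, but the gap between them was small. The log2 fold change of Maml1 was -0.14 (standard error 0.057, 95% interval -0.28 to -0.0088, adjusted p = 0.063 from limma), not past the threshold, and it was -0.022 with equal library totals. Without the variance trend in limma, Maml1 passed with an adjusted p of 0.033. The related Maml3, at 3.75 ± 0.11 and 5.04 ± 0.13 (SD, n = 3 each), rose (log2 fold change 0.35, limma adjusted p = 0.0011), and the lower-level Maml2 read 0.141 ± 0.023 and 0.288 ± 0.081.

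Among the targets, Hes1, a transcriptional repressor and the classical Notch response gene, rose together with Nrarp, and which of them had the higher log2 fold change depended on the setting. It read 3.89, 4.10 and 4.03 in the WT libraries and 6.63, 7.71 and 7.47 in the Sdc1-/- libraries. The groups were far apart, with narrow spread in WT. The log2 fold change of Hes1 was 0.72 (standard error 0.065, 95% interval 0.57 to 0.88, adjusted p = 9.5e-05 from limma), higher than that of 95.3% of all tested genes, and the linear ratio of the means was 1.81. No word of 31 bases in its transcripts occurs in those of another gene.

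Nrarp encodes a small ankyrin repeat protein that is induced by Notch and dampens it. It read 1.08, 0.992 and 0.973 in the WT libraries and 2.12, 2.36 and 2.39 in the Sdc1-/- libraries. Each Sdc1-/- library lay well above all WT libraries. The log2 fold change of Nrarp was 0.71 (standard error 0.073, 95% interval 0.53 to 0.88, adjusted p = 1.8e-04 from limma), the linear ratio of the means was 2.25, and a pseudocount of 0.1 gave a log2 fold change of 1.10. Of the 2552 words of 31 bases in its transcript, 78.2% also occur, as reverse complements, in the antisense gene Gm38287 that overlaps it. The library kit keeps strand, but whether strand was used when reads were assigned is not given in the sources used here, so the part of the antisense gene in the Nrarp values was not tested.

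Dtx4, a Deltex E3 ubiquitin ligase, fell. It read 8.26, 8.12 and 7.82 in the WT libraries and 6.17, 5.89 and 5.83 in the Sdc1-/- libraries, with no overlap. The log2 fold change of Dtx4 was -0.38 (standard error 0.048, 95% interval -0.49 to -0.27, adjusted p = 4.6e-04 from limma), a fall of 26.1% in the mean, and it was -0.25 with equal library totals. Hes6, a HES family member that antagonizes Hes1 and is not a typical induced target, read 21.5, 19.9 and 22.3 in the WT libraries and 21.9, 20.5 and 19.6 in the Sdc1-/- libraries. Its values overlapped, and its log2 fold change of -0.037 (95% interval -0.18 to 0.10, adjusted p = 0.61 from limma) changed sign, to 0.10, with equal library totals.

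**Figure D3:**
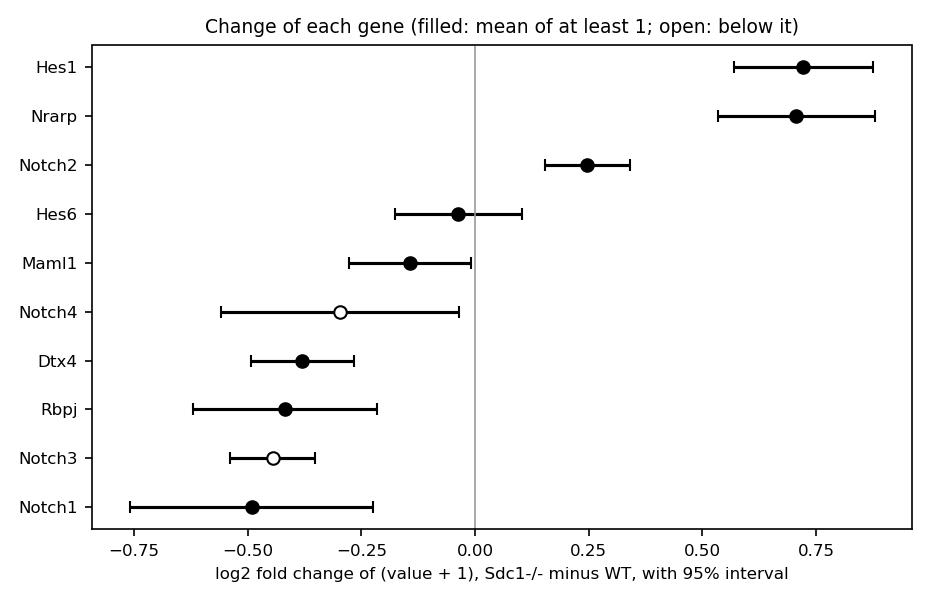
Log2 fold change of (value + 1), Sdc1-/- minus WT (horizontal axis), with the 95% interval from limma for each of the 10 genes. Filled points had a mean of at least 1, and the open points, Notch3 and Notch4, come from the fit with no minimum mean. Hes1, Nrarp and Notch2 lie to the right of 0, and the interval of Hes6 includes 0.

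The targets therefore did not share one direction with each other or with the receptors and Rbpj. Within libraries, the ratio of Hes1 to Rbpj was 0.111, 0.117 and 0.141 in WT and 0.271, 0.303 and 0.328 in Sdc1-/- libraries. The ratio of Hes1 to Hes6 was 0.189 ± 0.015 in WT and 0.353 ± 0.044 in Sdc1-/- libraries (SD, n = 3 each). Both ratios were free of the scaling between libraries, and in both the groups did not overlap (two-sided exact permutation p = 0.1, again the lowest possible). The order of levels changed accordingly. In WT it ran Rbpj, Hes6, Notch2, Dtx4, Maml1, Hes1, Notch1, Nrarp, Notch3, Notch4, and only the neighbours Nrarp and Notch3 overlapped in their library values. In Sdc1-/- libraries Hes1 stood above Dtx4 and Maml1, and Nrarp above Notch1, with no neighbours overlapping.

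The rest of the pathway was counted over 79 further genes in lists by role, of which 54 had a mean of at least 1. Of these, 20 rose and 14 fell in the libraries labelled Sdc1-/-, 63.0% in all against the 60.7% of all tested genes, with a median log2 fold change of 0.018. After scaling each library to a total of 1000000, 24 rose and 8 fell, where 5290 of all 12150 tested genes rose and 2367 fell. Ligand genes were low. Of 7, only Jag2 reached the limit, and it did so through the Sdc1-/- group, at 0.825, 0.426 and 1.10 in WT and 1.56, 2.24 and 1.66 in Sdc1-/- libraries (log2 fold change 0.67, limma adjusted p = 0.010). Jag2 is counted among the 20 that rose, but no weight is given to its call, since it was tested only through the group where it is high. Jag1 read 0.301 ± 0.058 and 0.729 ± 0.10 (SD, n = 3 each), and Dll1, Dll3 and Dll4 did not exceed 0.065 in any library. The summed level of these 5 ligands was 1.14, 0.743 and 1.48 in WT and 2.21, 3.14 and 2.49 in Sdc1-/- libraries.

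In the machinery that modifies and cuts the receptors, some genes were lower, some higher and others not called. Furin, the protease that makes the first cut of the receptor on its way to the surface, read 71.8, 60.8 and 73.0 in WT and 31.4, 28.5 and 33.3 in Sdc1-/- libraries (log2 fold change -1.11, limma adjusted p = 4.2e-05). The proteases of the second cut, Adam10 at 59.4 ± 2.75 and 58.5 ± 3.72 and Adam17 at 15.9 ± 0.31 and 16.4 ± 1.74 (SD, n = 3 each), overlapped between the groups and were not called. Among the genes of gamma-secretase, which makes the last cut, Psenen (log2 fold change -0.23), Aph1a (-0.22) and Ncstn (-0.22) fell by limma, where 31.3% of all genes fell, and with equal library totals the values shrank to -0.086, -0.076 and -0.070, with limma adjusted p-values of 0.048, 0.045 and 0.085. Psen2 (-0.19, limma adjusted p = 0.13) and Aph1c (0.17, limma adjusted p = 0.32) were not called. Of the 8 tested glycosyltransferase genes, 2 rose, 1 fell and 5 were not called, 37.5% called against 60.7% of all tested genes. The sugar-adding enzymes Rfng (log2 fold change 0.33) and Pofut1 (0.24) rose, and Xxylt1 fell (-0.23). After scaling each library to a total of 1000000, 5 rose and 0 fell, in a setting where 5290 of all 12150 tested genes rose and 2367 fell.

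Of 13 tested corepressors of RBPJ, 6 rose and 2 fell, which is 61.5% called against 60.7% of all tested genes, with a median log2 fold change of 0.14. Spen, the scaffold that silences RBPJ sites in the absence of Notch, went from 4.63 ± 0.50 to 9.01 ± 0.88 (SD, n = 3 each) (log2 fold change 0.83, limma adjusted p = 2.1e-04). The histone deacetylase Hdac2 went from 58.7 ± 2.12 to 87.6 ± 3.14 (SD, n = 3 each), and Ctbp1 from 150 ± 7.59 to 126 ± 8.58. Ctbp1 and Cir1, the 2 that fell, were not called with equal library totals, where 7 of the list and 5290 of all 12150 tested genes rose. Of the 8 tested genes of the RBPJ complex and its coactivators, a list that holds Rbpj and Maml1, 3 rose and 2 fell. That is 62.5% called, against 60.7% of all tested genes. Kat2a rose with a log2 fold change of 0.26, and Snw1 fell with one of -0.22 that was not called with that scaling.

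The other HES and HEY genes were near the floor. Apart from Hes1 and Hes6, no gene of that list reached the limit, Hes5 did not exceed 0.152 and Heyl was listed at 0 in every library. Of 7 tested genes in the list of further Notch targets, which holds Nrarp and Dtx4, 3 rose and 4 fell. All 7 were thus called, against 60.7% of all tested genes. With equal library totals 3 rose, 3 fell and Il2ra changed its sign, where 5290 of all 12150 tested genes rose and 2367 fell. The growth factor receptor gene Igf1r fell from 36.4 ± 2.10 to 23.1 ± 0.43 and the cell cycle inhibitor gene Cdkn1a from 67.3 ± 1.69 to 48.0 ± 1.15, while Tcf7, a T lineage transcription factor, rose from 2.53 ± 0.043 to 3.20 ± 0.19 (SD, n = 3 each, adjusted p from limma 4.1e-05, 3.5e-05 and 0.011). In the Deltex family, to which Dtx4 belongs, 2 of 4 tested genes rose and 1 fell, and Dtx3 had the largest change. It read 25.6, 25.2 and 24.0 in WT and 52.8, 52.6 and 59.3 in Sdc1-/- libraries (log2 fold change 1.11, limma adjusted p = 7.3e-06) and opposite in direction to Dtx4.

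Of the genes for endocytosis and turnover, 4 rose and 2 fell of 9 tested, 66.7% against the 60.7% of all tested genes. Numb, which inhibits Notch by sorting the receptor for degradation, went from 10.5 ± 0.69 to 6.63 ± 0.31 (SD, n = 3 each) (log2 fold change -0.60, limma adjusted p = 1.7e-04), and the ubiquitin ligase Nedd4l fell with a log2 fold change of -0.49. The ligases Mib2, which acts on ligands, and Fbxw7, which marks the Notch intracellular domain for destruction, rose with log2 fold changes of 0.65 and 0.32.

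**Figure D4:**
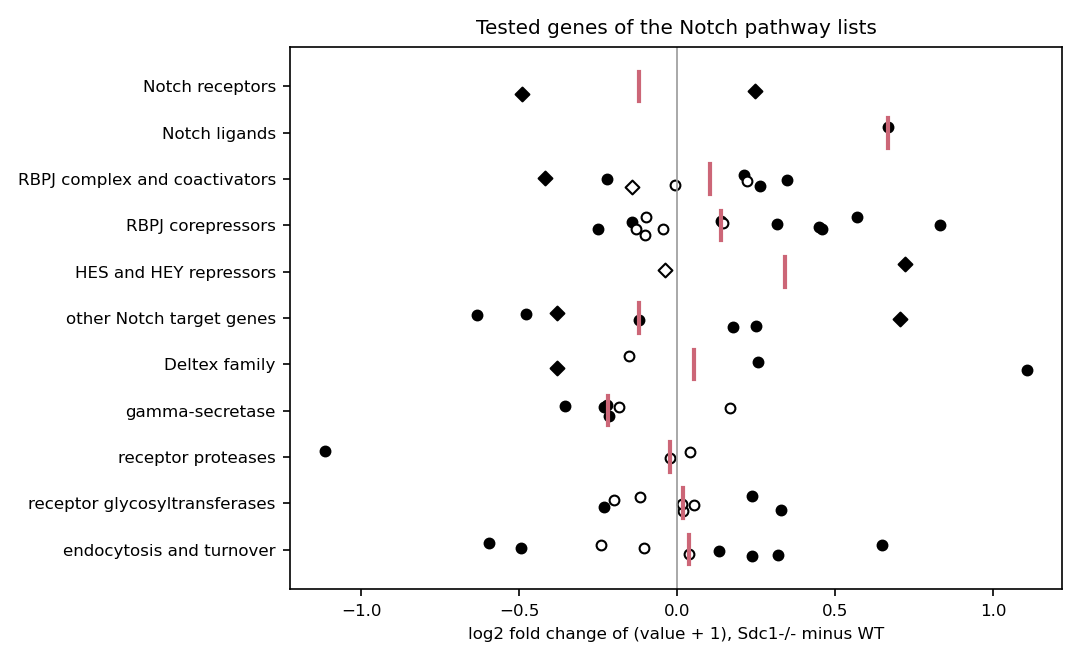
Log2 fold change of (value + 1), Sdc1-/- minus WT (horizontal axis), of each tested gene in 11 lists of the pathway (rows, with small vertical scatter for legibility). Filled symbols passed an adjusted p of 0.05 from limma, open symbols did not, diamonds are the genes of the 10, and red bars are list medians. Furin is the lowest point and Dtx3 the highest.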

How the data were processed

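Lin- bcCML cells were measured by RNA-seq in 6 libraries, each from 150 ng of RNA and single-end reads of 75 bases. The authors ran kallisto and deposited 1 signal for each gene and library, TPM summed over transcripts and rescaled between libraries. The submitters' processing notes name mm10 and sleuth 0.30.0, and the kallisto version is not given in the sources used here. The deposited sleuth table holds the authors' own effect sizes and tests and was not used. Depth is unknown. Symbols were matched for 35454 of 36083 identifiers.

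Groups and replicate numbers come from the labels. With limma 3.58.1 in R 4.3.3, log2(value + 1) was fitted for 12155 genes averaging 1 or more, with no term but group, with a variance trend and Benjamini-Hochberg adjustment at 0.05. The test had been chosen for plain TPM and was kept for the rescaled values. On simulated data for this comparison, 189 of 200 of 12155 genes changed by 1 on the log2 scale were called in the right direction, with 6 unchanged genes called. The tested members of the 10 changed by less, from -0.49 to 0.72, and changes of that size were not simulated. The genes and lists were chosen with earlier results of these data known. Named besides the 10 genes and Sdc1 are the ligands and the 2 largest rises and falls among called genes of each list. Others were named after their values were seen (Adam10, Adam17, Aph1a, Aph1c, Ncstn, Psen2, Maml2, Hes5, Heyl, Il2ra and the genes that share words with Notch1, Nrarp and Rbpj). A result that the naming rule would include is not reported here. Words of 31 bases were compared in GENCODE M21 transcripts. Other settings changed the pseudocount, minimum mean, scaling, trend, replicate block and libraries used. Other steps used Python 3.11.15, scipy 1.17.1, numpy 2.4.6, pandas 2.3.3 and matplotlib 3.10.9.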

Additional observations from a re-analysis of the deposited data

How the results depend on the processing

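Across 14 other settings, the calls of Hes1, Nrarp, Notch1, Notch2, Rbpj and Dtx4 held in each one that could be fitted for them, and Notch1, Nrarp and Maml1 lay below a minimum mean of 5. After scaling each library to a total of 1000000, 8 of the further pathway genes fell instead of 14, 2367 genes fell overall instead of 3810, the lower share of calls was 30.9% instead of 51.7%, and the log2 fold change of Hes6 was 0.10, since the median of all genes moved to 0.12. In that setting 24 further pathway genes rose instead of 20, and 5290 genes rose overall instead of 3564. With a minimum mean of 5, 13 further pathway genes rose instead of 20, of 43 tested instead of 54. Leaving out 1 library at a time, the log2 fold change ran from -0.58 to -0.43 for Notch1, from -0.51 to -0.37 for Rbpj, from 0.68 to 0.78 for Hes1 and from 0.68 to 0.74 for Nrarp. For Notch3, 9 settings chosen after seeing the data kept the call, with adjusted p-values from limma of 1.0e-04 to 0.0047. Numbers shared by libraries do not mark a known pairing. The deviations of same-numbered libraries correlated at 0.15, -0.0083 and 0.019 across genes, and not every library correlated best with its own number. A replicate block gave 3 higher and 3 lower of the 10 genes and 3653 higher and 3971 lower genes in all. The values carry no depth, so that how far counting error limits Notch3, Notch4 and the ligands is unknown.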
